A study of Mus musculus with 12 samples.

Results

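The genes of cholesterol and fatty acid synthesis that sterol regulatory element-binding proteins (SREBPs) drive were measured by RNA-seq in mouse alveolar macrophages, which live on the surface of the lung's air sacs. They were chosen by name from the pathway: 35 names stood for 34 genes of the deposited count table, out of 23412 genes in all, since Sc4mol and Msmo1 are names of 1 gene. The 34 fell into 18 sterol enzymes, 6 genes of SREBP control and sterol transport, and 10 fatty acid enzymes. All 34 passed the filter on low counts and stood among the 12748 genes tested.

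The series held 12 libraries in 6 groups of 2, all from cells obtained by lavage. Wild-type (WT) macrophages were cultured for 24 h in complete medium with 50 nM vitamin D3 or without it, from mice of an age not given in the sources used here. Fresh macrophages came from mice labelled VDR knockout (KO) and from WT mice, at 10 and at 4 weeks of age. Neither the part of Vdr removed, nor the tissues concerned, nor any pooling of animals could be read from the labels. The labels number replicates by source without saying that a number is 1 animal, so a p-value here reflects the spread among libraries, some of which may be technical. In culture, source WT1 gave 1 vitamin D3 and 1 untreated library, while the other vitamin D3 library came from WT3 and the other untreated one from WT2.

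Total counts ran from 10409572 to 23233674, and 1 count was worth 0.0904 CPM (counts scaled to library size with TMM factors) or less. Vdr was at 84.2 and 45.0 CPM in 10-week KO against 79.6 and 126.9 CPM in 10-week WT, and at 45.9 and 31.2 CPM in 4-week KO against 56.5 and 57.7 CPM in 4-week WT. In culture it was at 72.1 and 42.4 CPM with vitamin D3 against 7.82 and 7.61 CPM without it. The transcript was thus present in every library labelled knockout, and 10-week KO replicate 1 overlapped WT. The description codes of that library and of 10-week WT replicate 2 contradict their genotype labels; the genotype labels are followed here. Replicate 2 of both 10-week genotypes was female by Xist (787 CPM in KO and 800.3 CPM in WT), and the other 10 libraries had under 1 CPM, so the 10-week replicates of a genotype were not repeats of 1 animal. Replicates 1 of both 10-week genotypes also share 1 series of title numbers, and replicates 2 another. All 11 markers of alveolar macrophages were found in every group. They summed to 10637 to 12389 CPM with vitamin D3, 11254 to 11337 CPM in untreated culture and 21940 to 41710 CPM over the fresh groups. Chi3l3 was the largest part of each sum, at 5044 to 5744 CPM in culture. Car4 was at 0.66 and 0.97 CPM in untreated culture against 216 to 618 CPM over fresh WT. By edgeR, 6 of the 11 were called lower and 2 higher in untreated culture than in fresh WT of either age. There 42.4% (10 weeks) and 39.7% (4 weeks) of all genes passed. With vitamin D3, 4 were called lower and 2 higher than without it, where 10.6% of all genes passed.

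SREBPs are made as precursors held in the membrane of the endoplasmic reticulum. When sterols are low, the escort protein SCAP carries them to the Golgi, where proteases release the part that enters the nucleus; INSIG proteins hold SCAP back when sterols are plentiful. SREBP2 chiefly drives the sterol enzymes, and the SREBP1c form chiefly drives the fatty acid enzymes. Alveolar macrophages take up and break down surfactant, a mixture rich in phospholipid that also holds cholesterol, so they handle a steady load of outside lipid.

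The promoters of 4 members are printed because these had the most comparisons past the threshold among members with an entry in RefSeq's promoter table (GRCm38.p6), which held 27 of the 34. Each is the 250 bases before the annotated start, read 5′ to 3′ on the gene's strand. Hmgcs1 lies at chr13:119690101-119690350 (plus strand), Fasn at chr11:120824548-120824797 (minus), Acsl3 at chr1:78657575-78657824 (plus), and Dhcr7, by the farthest upstream of its starts, at chr7:143822917-143823166 (plus). Capitals mark matches, on either strand, to TCACNCCAC, a core of the sterol regulatory element, and to CCAAT, the box bound by NF-Y, a factor that works beside SREBPs; on the other strand these read GTGGNGTGA and ATTGG.
Hmgcs1: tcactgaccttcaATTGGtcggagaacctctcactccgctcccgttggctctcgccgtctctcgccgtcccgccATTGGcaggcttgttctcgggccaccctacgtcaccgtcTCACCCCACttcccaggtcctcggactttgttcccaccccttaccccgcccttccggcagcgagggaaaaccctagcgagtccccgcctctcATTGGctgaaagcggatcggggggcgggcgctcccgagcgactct
Fasn: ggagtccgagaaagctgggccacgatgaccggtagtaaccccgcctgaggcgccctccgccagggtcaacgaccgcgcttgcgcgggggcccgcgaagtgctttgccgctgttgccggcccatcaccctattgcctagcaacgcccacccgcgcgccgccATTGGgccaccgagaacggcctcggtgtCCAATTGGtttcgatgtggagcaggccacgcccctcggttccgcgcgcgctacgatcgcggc
Acsl3: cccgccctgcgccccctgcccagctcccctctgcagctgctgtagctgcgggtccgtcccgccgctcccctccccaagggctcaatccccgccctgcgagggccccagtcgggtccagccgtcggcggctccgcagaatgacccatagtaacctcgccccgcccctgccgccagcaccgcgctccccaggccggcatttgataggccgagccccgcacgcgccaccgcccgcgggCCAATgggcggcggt
Dhcr7: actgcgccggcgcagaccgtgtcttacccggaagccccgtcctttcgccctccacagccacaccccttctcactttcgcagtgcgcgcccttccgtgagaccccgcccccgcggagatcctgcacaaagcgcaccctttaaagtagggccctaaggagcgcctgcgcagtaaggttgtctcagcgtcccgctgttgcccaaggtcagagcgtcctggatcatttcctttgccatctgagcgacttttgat
The Hmgcs1 window held TCACNCCAC once, starting 137 bases before the start, and CCAAT 3 times. Fasn held CCAAT 3 times, the last pair overlapping on opposite strands, and Acsl3 held it once. The Dhcr7 window held neither. Over all 27 member genes, counting any annotated start, 1 had TCACNCCAC, against 1.225% of 27025 genes in the table. CCAAT stood in 14 of 15 sterol enzymes, in 4 of 5 control genes and in 3 of 7 fatty acid enzymes, against 37.49% of all genes. A match describes these letters only and is no proof of a site.

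Untreated culture over fresh cells gave the largest sterol medians of the 9 contrasts with a direction. Of the 18 sterol enzymes, 16 rose in untreated culture against fresh WT at 10 weeks and 17 against fresh WT at 4 weeks, and 0 fell; Ebp passed against neither age and Pmvk against 4 weeks alone. Insig1, whose protein retains SCAP and whose gene SREBP itself drives, rose by log2 2.20 ± 0.17 (edgeR adjusted p = 1.67e-06) against 10 weeks and 2.20 ± 0.17 (edgeR adjusted p = 1.86e-06) against 4 weeks. Sqle, squalene epoxidase, rose by 2.35 ± 0.25 (edgeR adjusted p = 1.8e-05) and 2.31 ± 0.25 (edgeR adjusted p = 2.12e-05). The fatty acid arm split, with Fads1 and Fasn higher at both ages and the elongase Elovl6 lower at both.

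Over all 34 members, 26 passed at an edgeR adjusted p of 0.05 against fresh WT at 10 weeks (24 higher, 2 lower), where 42.4% of all genes passed and 21.2% passed as higher. Against 4 weeks, 29 passed (26 higher, 3 lower), where 39.7% of all genes passed and 20.1% as higher. The sterol enzymes had a median log2 fold change of 1.63 and 1.59, against -0.02 for all genes in both comparisons. Both comparisons use the same 2 untreated libraries, so they are not independent. A test of any difference among the 6 groups called 16 of 18 sterol enzymes, 6 of 6 control genes and 7 of 10 fatty acid enzymes, where 58.2% of all genes passed.

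The first sterol enzymes turn acetyl-CoA into mevalonate and mevalonate into isoprenoid units. Acat2 joins the first pair of acetyl-CoA units, Hmgcs1 adds the next, and Mvk, Pmvk and Mvd phosphorylate and decarboxylate mevalonate. Acat2 was at 36.4 and 36.2 CPM with vitamin D3, 42.02 and 41.7 in untreated culture, 18.2 and 24.5 in 10-week KO, 19.2 and 28.3 in 10-week WT, 25.6 and 26.1 in 4-week KO, and 17.7 and 26.8 in 4-week WT. Hmgcs1 was at 234 and 224 CPM with vitamin D3, 418 and 348 in untreated culture, 146 and 205 in 10-week KO, 150.5 and 161 in 10-week WT, 197 and 216 in 4-week KO, and 144 and 146 in 4-week WT. Mvk was at 21.9 and 27.5 CPM with vitamin D3, 29.1 and 35.1 in untreated culture, 9.22 and 19.6 in 10-week KO, 11.96 and 13.3 in 10-week WT, 15.3 and 21.4 in 4-week KO, and 16.00 and 13.3 in 4-week WT. For these genes the untreated cultures were the highest libraries, with vitamin D3 libraries next, and all 4 cultured libraries stood above all 8 fresh ones. Pmvk was at 35.6 and 32.03 CPM with vitamin D3, 34.7 and 38.9 in untreated culture, 23.2 and 34.6 in 10-week KO, 23.04 and 30.9 in 10-week WT, 26.2 and 35.5 in 4-week KO, and 23.5 and 24.6 in 4-week WT. Mvd was at 190.5 and 150.3 CPM with vitamin D3, 133 and 139 in untreated culture, 60.6 and 77.6 in 10-week KO, 74.1 and 87.1 in 10-week WT, 69.5 and 80.01 in 4-week KO, and 73.5 and 65.3 in 4-week WT. For Pmvk the cultured and fresh libraries overlapped, and its log2 fold changes were 0.46 ± 0.20 (edgeR adjusted p = 0.0941) against 10 weeks and 0.61 ± 0.20 (edgeR adjusted p = 0.0326) against 4 weeks. Mvd was the sterol enzyme whose vitamin D3 libraries both stood above the untreated ones, with a log2 difference of 0.33 ± 0.15 (edgeR adjusted p = 0.217).

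Idi1 isomerises isopentenyl diphosphate, Fdps builds farnesyl diphosphate, and Fdft1 joins farnesyl units into squalene. Idi1 was at 209.5 and 197 CPM with vitamin D3, 278 and 241 in untreated culture, 57.2 and 87.8 in 10-week KO, 55.6 and 72.4 in 10-week WT, 71.3 and 88.1 in 4-week KO, and 57.5 and 61.5 in 4-week WT. Fdps was at 162 and 195 CPM with vitamin D3, 192 and 223 in untreated culture, 42.3 and 63.9 in 10-week KO, 48.8 and 64.7 in 10-week WT, 66.5 and 92.8 in 4-week KO, and 58.3 and 59.2 in 4-week WT. Fdft1 was at 95.6 and 97.7 CPM with vitamin D3, 138 and 139 in untreated culture, 30.7 and 50.7 in 10-week KO, 32.8 and 40.1 in 10-week WT, 41.4 and 51.1 in 4-week KO, and 43.5 and 37.6 in 4-week WT. The cultured libraries of all 3 genes lay well above the fresh ones, with no overlap. Sqle oxidises squalene and Lss closes its rings to lanosterol. Sqle was at 168 and 191 CPM with vitamin D3, 219.9 and 236 in untreated culture, 41.3 and 82.1 in 10-week KO, 40.7 and 48.7 in 10-week WT, 62.6 and 76.4 in 4-week KO, and 46.5 and 45.6 in 4-week WT. Lss was at 75.9 and 75.5 CPM with vitamin D3, 82.3 and 76.03 in untreated culture, 18.1 and 31.00 in 10-week KO, 20.8 and 22.3 in 10-week WT, 27.7 and 30.8 in 4-week KO, and 25.1 and 21.4 in 4-week WT. In fresh cells the highest Sqle values belonged to 10-week KO replicate 2 and to both 4-week KO libraries, and 10-week KO replicate 1 lay within the WT range.

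The late enzymes turn lanosterol into cholesterol. Cyp51 and Sc4mol remove methyl groups, and Tm7sf2 reduces the sterol ring. Cyp51 was at 272 and 251 CPM with vitamin D3, 307 and 285 in untreated culture, 66.9 and 92.2 in 10-week KO, 75.5 and 90.3 in 10-week WT, 81.2 and 110.3 in 4-week KO, and 74.9 and 71.6 in 4-week WT. Tm7sf2 was at 9.39 and 8.99 CPM with vitamin D3, 12.9 and 12.8 in untreated culture, 6.78 and 7.68 in 10-week KO, 6.94 and 8.55 in 10-week WT, 7.86 and 10.2 in 4-week KO, and 8.66 and 8.16 in 4-week WT. Sc4mol was at 252 and 236 CPM with vitamin D3, 275 and 287 in untreated culture, 64.5 and 91.3 in 10-week KO, 63.02 and 72.97 in 10-week WT, 64.5 and 86.1 in 4-week KO, and 59.6 and 56.3 in 4-week WT. Tm7sf2 was the exception of the 3, since its vitamin D3 libraries overlapped the fresh ones. Nsdhl and Hsd17b7 complete the demethylation. Nsdhl was at 51.4 and 51.8 CPM with vitamin D3, 64.3 and 63.00 in untreated culture, 24.2 and 29.1 in 10-week KO, 24.6 and 22.9 in 10-week WT, 23.6 and 33.00 in 4-week KO, and 29.3 and 25.1 in 4-week WT. Hsd17b7 was at 59.6 and 53.8 CPM with vitamin D3, 77.5 and 57.2 in untreated culture, 20.5 and 25.8 in 10-week KO, 15.7 and 17.5 in 10-week WT, 17.04 and 25.3 in 4-week KO, and 19.5 and 16.2 in 4-week WT. Both genes stood higher in all cultured libraries than in all fresh ones. Ebp shifts a double bond, and Sc5d and Dhcr7 finish the ring. Ebp was at 53.4 and 61.7 CPM with vitamin D3, 58.8 and 74.6 in untreated culture, 54.8 and 47.6 in 10-week KO, 49.4 and 57.8 in 10-week WT, 62.3 and 66.00 in 4-week KO, and 64.00 and 62.2 in 4-week WT. Sc5d was at 85.7 and 76.5 CPM with vitamin D3, 89.02 and 80.00 in untreated culture, 15.7 and 24.5 in 10-week KO, 18.7 and 23.98 in 10-week WT, 23.9 and 32.2 in 4-week KO, and 22.6 and 18.6 in 4-week WT. Dhcr7 was at 179 and 199 CPM with vitamin D3, 182 and 179 in untreated culture, 57.1 and 71.1 in 10-week KO, 68.1 and 66.96 in 10-week WT, 84.4 and 100.3 in 4-week KO, and 69.03 and 70.9 in 4-week WT. For Ebp the cultured and fresh libraries overlapped, with log2 fold changes of 0.32 ± 0.14 (edgeR adjusted p = 0.0815) and 0.08 ± 0.13 (edgeR adjusted p = 0.675), whereas Sc5d and Dhcr7 separated fully. Some calls were lost with 1 library left out. Against 10 weeks, Acat2 and Tm7sf2 were lost without WT replicate 1 (adjusted p = 0.0917 and 0.0937). Against 4 weeks, Acat2 was lost without WT replicate 1 (0.0604), Mvk without WT replicate 2 (0.0654), and Pmvk and Tm7sf2 without any 1 of the 4 libraries (up to 0.137 and 0.113). In all, 15 of 18 sterol enzymes had all 4 cultured libraries above all 8 fresh ones, where 18.2% of all genes did.

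**Figure D1:**
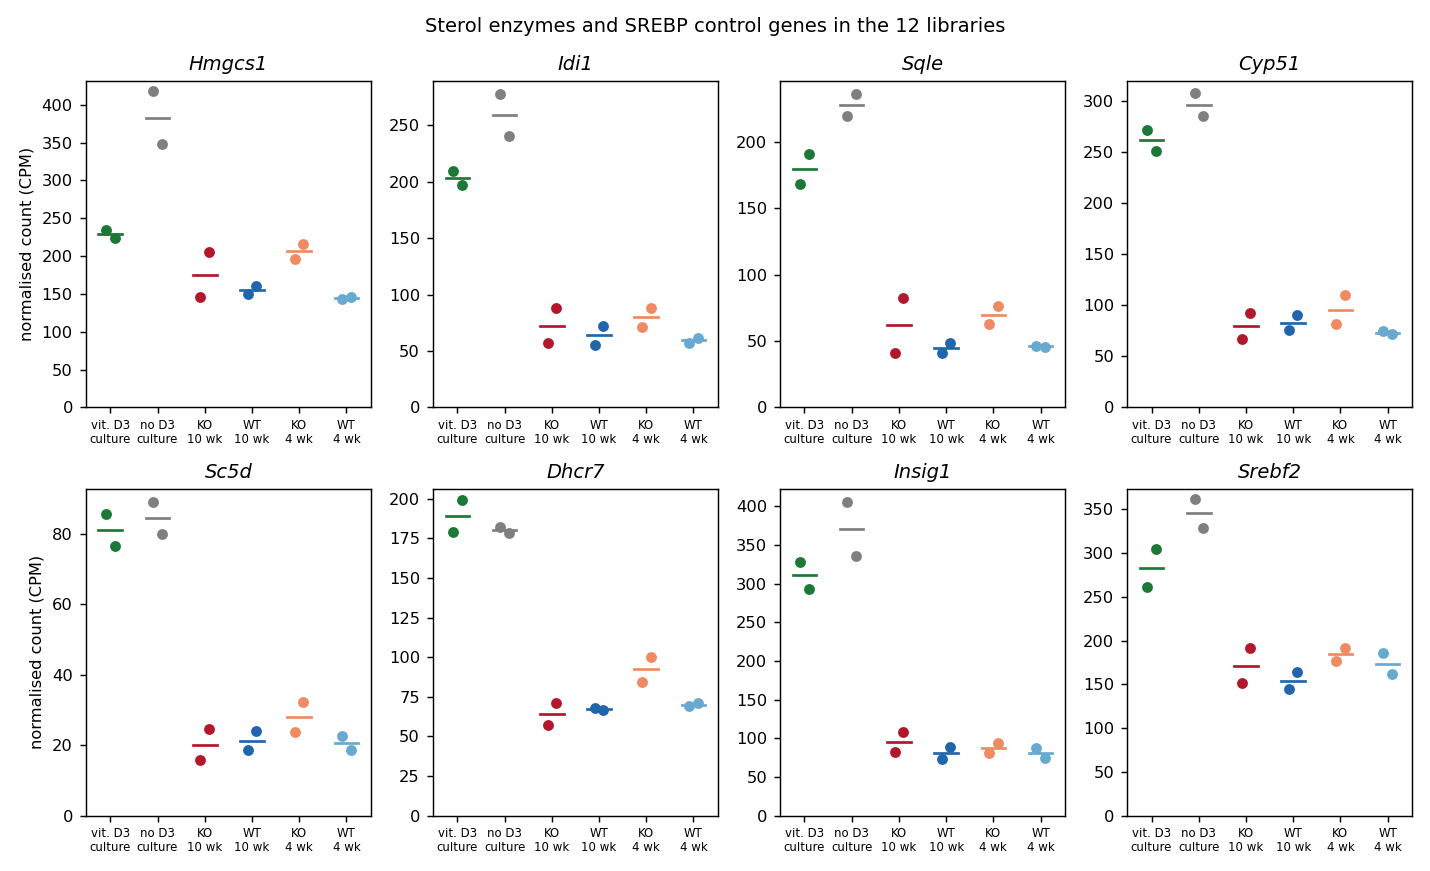
Normalised counts (CPM, linear axes from 0) of 6 sterol enzymes, Insig1 and Srebf2 in each of the 12 libraries, with 1 point a library and a bar at the group mean. The cultured libraries stand above the fresh ones in every panel, and for Hmgcs1 the vitamin D3 libraries (234 and 224 CPM) lie below the untreated ones (418 and 348 CPM).

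The genes that control SREBPs did not move as a block. Srebf2 was at 261 and 305 CPM with vitamin D3, 362 and 329 in untreated culture, 151 and 192 in 10-week KO, 145 and 164 in 10-week WT, 177 and 192 in 4-week KO, and 186 and 161 in 4-week WT. Insig1 was at 329 and 293 CPM with vitamin D3, 406 and 336 in untreated culture, 81.9 and 108 in 10-week KO, 73.02 and 88.96 in 10-week WT, 81.1 and 94.4 in 4-week KO, and 86.9 and 74.9 in 4-week WT. Stard4 was at 47.01 and 34.6 CPM with vitamin D3, 58.7 and 40.2 in untreated culture, 21.3 and 25.9 in 10-week KO, 20.3 and 24.9 in 10-week WT, 25.7 and 29.8 in 4-week KO, and 19.5 and 22.2 in 4-week WT. All 3 genes, which encode SREBP2, the SCAP retainer INSIG1 and a cytosolic sterol carrier, were higher in all cultured libraries than in any fresh one. Srebf2 rose by log2 1.16 ± 0.14 (edgeR adjusted p = 4.58e-05) against 10 weeks and Stard4 by 1.14 ± 0.21 (edgeR adjusted p = 0.00095). Scap was at 72.6 and 80.6 CPM with vitamin D3, 86.7 and 80.5 in untreated culture, 93.3 and 109 in 10-week KO, 106 and 103 in 10-week WT, 102 and 108 in 4-week KO, and 107 and 103 in 4-week WT. Srebf1 was at 104 and 120.3 CPM with vitamin D3, 122 and 127 in untreated culture, 116 and 135 in 10-week KO, 143 and 139 in 10-week WT, 152 and 164 in 4-week KO, and 135 and 136 in 4-week WT. Insig2 was at 27.4 and 23.95 CPM with vitamin D3, 24.1 and 21.5 in untreated culture, 23.01 and 22.2 in 10-week KO, 22.2 and 20.2 in 10-week WT, 17.04 and 15.6 in 4-week KO, and 17.5 and 18.8 in 4-week WT. Scap fell in untreated culture, with log2 fold changes of -0.32 ± 0.11 (edgeR adjusted p = 0.0307) and -0.33 ± 0.11 (edgeR adjusted p = 0.0289). Without 10-week WT replicate 1 its adjusted p was 0.129, without replicate 2 0.0818, without untreated replicate 2 0.153. Against 4 weeks the Scap call was lost without WT replicate 1, WT replicate 2 or untreated replicate 2 (adjusted p = 0.11, 0.0778 and 0.142). Srebf1, which encodes SREBP1, had -0.18 ± 0.11 (edgeR adjusted p = 0.206) and -0.12 ± 0.11 (edgeR adjusted p = 0.408), and Insig2 had 0.10 ± 0.13 (edgeR adjusted p = 0.535) and 0.33 ± 0.13 (edgeR adjusted p = 0.0594).

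In the fatty acid arm, Acly supplies cytosolic acetyl-CoA, Acaca and Acacb carboxylate it to malonyl-CoA, and Fasn builds palmitate. Acly was at 304 and 357 CPM with vitamin D3, 406 and 393 in untreated culture, 367 and 384 in 10-week KO, 356 and 393 in 10-week WT, 327 and 316 in 4-week KO, and 335 and 346 in 4-week WT. Acaca was at 149.6 and 128 CPM with vitamin D3, 139 and 102 in untreated culture, 60.1 and 57.9 in 10-week KO, 68.5 and 57.9 in 10-week WT, 64.4 and 60.6 in 4-week KO, and 45.97 and 53.3 in 4-week WT. Fasn was at 222 and 238 CPM with vitamin D3, 296 and 254 in untreated culture, 105 and 117 in 10-week KO, 95.4 and 108 in 10-week WT, 151 and 147 in 4-week KO, and 109.8 and 116 in 4-week WT. Acly overlapped between cultured and fresh cells, while Acaca and Fasn separated. Acaca rose by log2 0.93 ± 0.15 (edgeR adjusted p = 0.000468) against 10 weeks, and Fasn by 1.43 ± 0.11 (edgeR adjusted p = 2.13e-06). Acacb was at 0.393 and 0.211 CPM with vitamin D3, 0.0547 and 0.081 in untreated culture, 0.39 and 0.723 in 10-week KO, 0.443 and 0.475 in 10-week WT, 0.387 and 0.14 in 4-week KO, and 0.908 and 0.338 in 4-week WT. Acacb was near the counting floor, with 2 counts over both untreated libraries against 20 in 4-week WT, a ratio of 0.114 (exact 95% counting interval 0.013 to 0.471). The log2 fold change was -3.06 ± 1.01 (edgeR adjusted p = 0.0312) against 4 weeks and -2.67 ± 1.04 (edgeR adjusted p = 0.0582) against 10 weeks. Its call at 4 weeks was lost without untreated replicate 1 (adjusted p = 0.177), untreated replicate 2 (0.107) or WT replicate 1 (0.176).

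Scd1 and Scd2 place the first double bond in saturated fatty acids, Fads1 and Fads2 make polyunsaturated ones, Elovl6 lengthens palmitate, and Acsl3 activates fatty acids with coenzyme A. Scd1 was at 82.4 and 40.3 CPM with vitamin D3, 45.1 and 31.7 in untreated culture, 13.3 and 7.68 in 10-week KO, 39.8 and 26.7 in 10-week WT, 5.87 and 7.01 in 4-week KO, and 6.71 and 4.44 in 4-week WT. Scd2 was at 203 and 222 CPM with vitamin D3, 334 and 283 in untreated culture, 33.8 and 54.8 in 10-week KO, 102 and 95.2 in 10-week WT, 65.7 and 71.3 in 4-week KO, and 59.3 and 66.9 in 4-week WT. Fads1 was at 66.9 and 64.9 CPM with vitamin D3, 54.99 and 54.6 in untreated culture, 9.51 and 13.01 in 10-week KO, 15.95 and 17.02 in 10-week WT, 17.6 and 22.4 in 4-week KO, and 9.92 and 10.4 in 4-week WT. These 3 desaturases were highest in culture, but Scd1 in 10-week WT overlapped the untreated cultures. Scd1 and Scd2 are close paralogs, and the authors' handling of shared reads is unknown, so the division of counts between them is uncertain. Fads2 was at 0.344 and 0.492 CPM with vitamin D3, 1.37 and 1.46 in untreated culture, 0.244 and 0.994 in 10-week KO, 1.03 and 2.37 in 10-week WT, 1.16 and 2.94 in 4-week KO, and 0.559 and 0.483 in 4-week WT. Elovl6 was at 7.57 and 10.1 CPM with vitamin D3, 5.69 and 9.39 in untreated culture, 23.6 and 14.8 in 10-week KO, 26.4 and 40.7 in 10-week WT, 16.05 and 11.98 in 4-week KO, and 16.2 and 17.4 in 4-week WT. Acsl3 was at 7.18 and 8.08 CPM with vitamin D3, 12.5 and 13.4 in untreated culture, 2.63 and 2.53 in 10-week KO, 3.003 and 4.35 in 10-week WT, 6.36 and 7.15 in 4-week KO, and 5.17 and 4.1 in 4-week WT. Fads2 was low in every group. Elovl6 had the opposite pattern, lowest in the 4 cultured libraries and highest in 10-week WT. Against fresh WT at 10 and 4 weeks, Fads1 rose by log2 1.73 ± 0.15 and 2.43 ± 0.16, Scd2 by 1.65 ± 0.18 and 2.29 ± 0.19, and Acsl3 by 1.83 ± 0.24 and 1.49 ± 0.23, with edgeR adjusted p of 0.000395 or less. Scd1 rose against 4 weeks alone, by 2.81 ± 0.39 (edgeR adjusted p = 0.00014), with 0.21 ± 0.34 (edgeR adjusted p = 0.653) against 10 weeks. Elovl6 had -2.17 ± 0.31 (edgeR adjusted p = 0.000172) and -1.18 ± 0.31 (edgeR adjusted p = 0.00965); the second call was lost without untreated replicate 1 (adjusted p = 0.0949). All 4 cultured libraries lay above all 8 fresh ones for 5 of 10 fatty acid enzymes and 3 of 6 control genes, where 18.2% of all genes did.

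**Figure D2:**
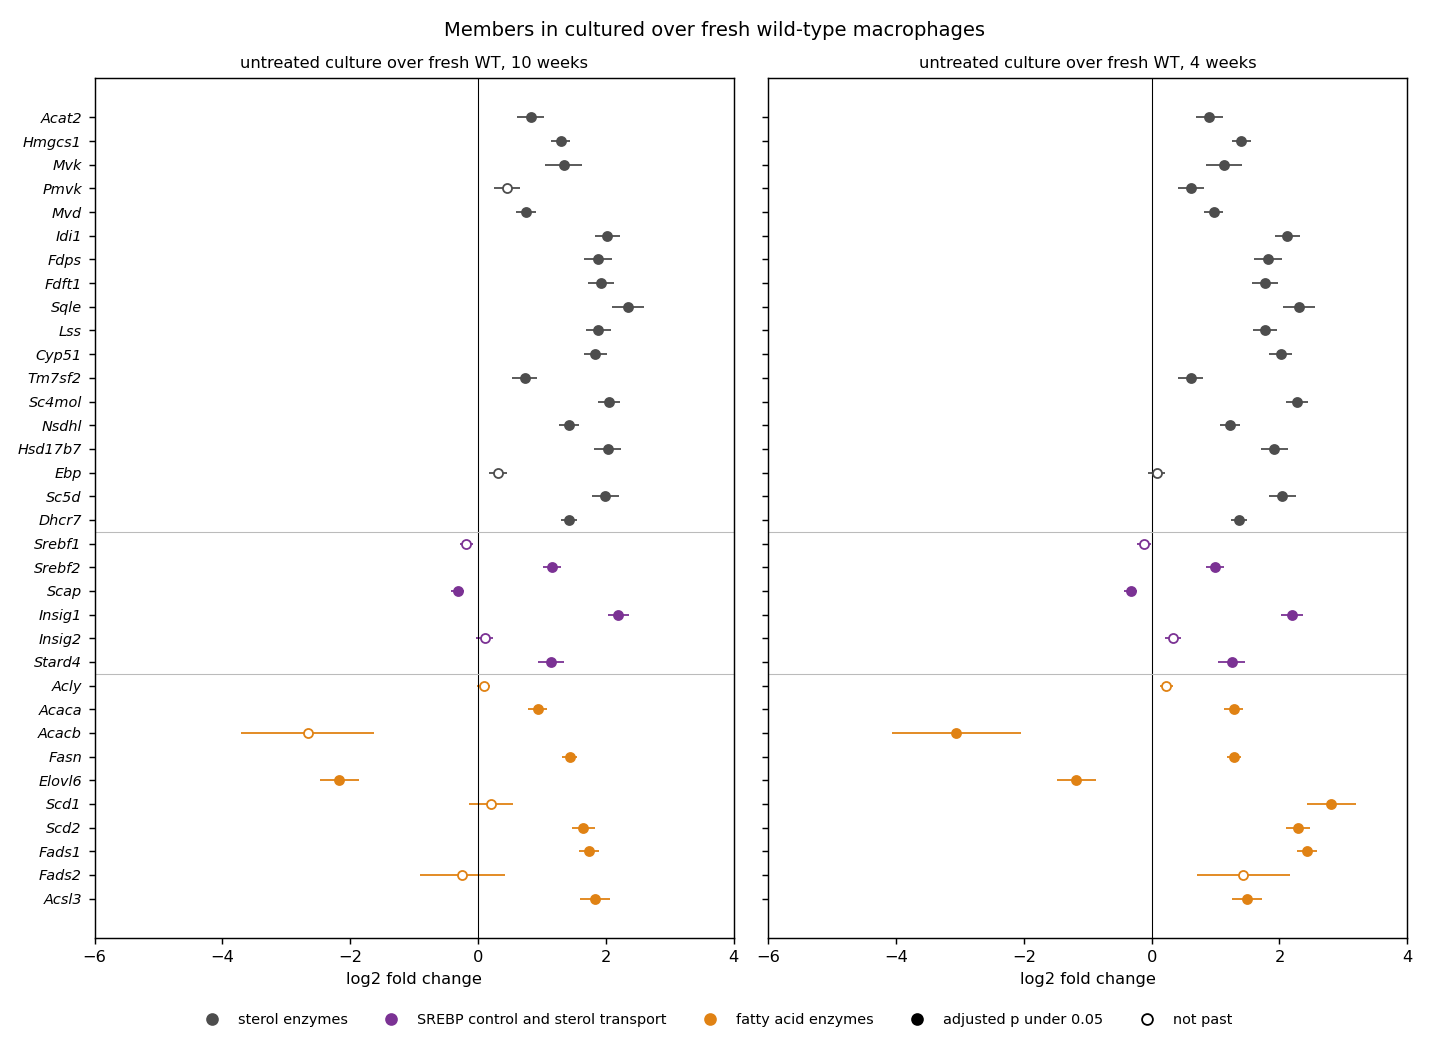
Log2 fold change (point) with its SE (bar) of each of the 34 members in untreated culture over fresh WT at 10 weeks (left) and 4 weeks (right), coloured by arm, filled where the edgeR adjusted p was under 0.05. The sterol enzymes lie right of 0 throughout (0.32 to 2.35 at left, 0.08 to 2.31 at right), while Elovl6, Acacb and Scap lie left of 0.

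Per kilobase of merged exon (lengths from the reference annotation, which may differ from the authors', so these levels are approximate), Insig1 was the most abundant member in untreated culture, at a mean of 119.8 CPM per kb (range 108.5 to 131.2, n = 2), followed by Hmgcs1 at 83.4 and Acly at 75.8. In fresh WT, Acly led at 67.7 CPM per kb (63.5 to 74.5, n = 4), ahead of Mvd at 40.4 and Hmgcs1 at 32.7, and Acacb was last at 0.0562. In untreated culture the ranges of Hmgcs1 (75.8 to 90.9) and Acly (74.5 to 77.0) overlapped.

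Other genes of the pathway came from a list of 26, of which 24 were tested. Against fresh WT at 10 weeks 15 rose and 3 fell, where 21.2% of all genes passed as higher. At 4 weeks 14 rose and 2 fell, where 20.1% of all genes passed as higher. Aacs, which makes acetoacetyl-CoA for lipid synthesis, rose by 1.49 ± 0.17 and 1.39 ± 0.17. Mbtps2, a protease that releases SREBPs, rose by 0.99 ± 0.12 and 0.97 ± 0.12. Mbtps1, the other such protease listed, went the other way. It had -0.30 ± 0.10 (edgeR adjusted p = 0.0336) against 10 weeks and -0.13 ± 0.10 (edgeR adjusted p = 0.321) against 4 weeks. Lpin1, a phosphatidate phosphatase, fell by log2 1.85 and 1.20, and the lipase gene Pnpla3 by 2.25 and 2.12. Markers of other cells moved in the same comparisons. Epithelial markers summed to 33 to 35 CPM in untreated culture against 119 to 312 CPM over fresh WT. Erythroid markers summed to 1.9 CPM or less in untreated culture against 70.6 to 3148 CPM over fresh WT. At each age 12 of 13 cycling markers were called lower, where 2699 (10 weeks) and 2488 (4 weeks) of all 12748 genes were. The part of these markers in the result was not tested. In such bulk libraries, fewer cells of a type and less RNA per cell cannot be told apart, and neither can culture, handling and the age of the donors. Sex was not balanced against 10 weeks, where WT replicate 2 was female and no cultured library was. Title series was not balanced against 4 weeks.

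Hmgcs1, whose product feeds mevalonate synthesis, fell with vitamin D3. Its level averaged 229 ± 7.44 CPM with vitamin D3 and 383 ± 49.1 CPM in untreated culture (SD, n = 2 each). The log2 fold change was -0.74 ± 0.15 (edgeR adjusted p = 0.00744), and it was -0.83 and -0.64 when the libraries were matched by their title numbers. Both treated libraries lay below both untreated ones and above all 8 fresh ones. Without untreated replicate 1 the change was -0.60 with an edgeR adjusted p of 0.0574.

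Hmgcs1 was the 1 member of 34 that passed, where 10.6% of all genes passed, so the share of members past the threshold was below the background. Over the sterol arm 16 of 18 had lower values with vitamin D3, with a median of -0.22 against 0 for all genes. For 11 of the 18 both treated libraries lay below both untreated ones, where 24.7% of all genes did. Fdft1 had -0.52 ± 0.19 (edgeR adjusted p = 0.114) and Tm7sf2 -0.48 ± 0.19 (edgeR adjusted p = 0.148). The control genes had a median of -0.20, with Srebf2 at -0.29 ± 0.14 (edgeR adjusted p = 0.228) and Insig1 at -0.25 ± 0.16 (edgeR adjusted p = 0.381). The same untreated libraries serve as the reference here and as the cultured group above, so a low value here and a high one there share them.

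In the fatty acid arm 0 of 10 passed with vitamin D3 by edgeR, 5 had an unadjusted p under 0.05, as did 23.5% of all genes, and 5 values were higher and 5 lower. Acsl3 had -0.76 ± 0.23 (edgeR adjusted p = 0.0538), with 7.18 and 8.08 CPM with vitamin D3 against 12.5 and 13.4 CPM in untreated culture, and the groups did not overlap. Scd2 had -0.54 ± 0.18 (edgeR adjusted p = 0.0794), also without overlap. Scd1 had 0.68 ± 0.33 (edgeR adjusted p = 0.254) in the other direction, and its groups overlapped. Fads2, which did not pass by edgeR, had 14 counts over both treated libraries against 43 over both untreated ones. That was a ratio of 0.288 (exact 95% counting interval 0.146 to 0.537, without the spread between libraries).

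Outside the 34, 4 of 24 other pathway genes passed with vitamin D3, 2 higher and 2 lower, where 10.6% of all genes passed. Acss2 was at 61.9 and 35.7 CPM with vitamin D3, 10.5 and 12.6 in untreated culture, 4.53 and 6.6 in 10-week KO, 3.4 and 3.48 in 10-week WT, 3.54 and 3.43 in 4-week KO, and 3.49 and 2.37 in 4-week WT. Acss2, which makes acetyl-CoA from acetate, rose by log2 2.09 ± 0.27 (edgeR adjusted p = 0.000465), and both treated libraries stood far above all others. Acsl4, an acyl-CoA synthetase that favours arachidonate, was at 241 and 241 CPM with vitamin D3 against 145 and 141 CPM in untreated culture and rose by 0.76 ± 0.10 (edgeR adjusted p = 0.000509). Acsl1, another synthetase, was at 71.1 and 82.1 CPM with vitamin D3 against 129 and 115 CPM in untreated culture and fell by log2 0.68 (edgeR adjusted p = 0.00448). Elovl5, an elongase of polyunsaturated fatty acids, was at 79.8 and 112 CPM with vitamin D3 against 136 and 151 CPM in untreated culture and fell by 0.58 (edgeR adjusted p = 0.0437). Without vitamin D3 replicate 1 the adjusted p was 0.0599 for Acsl1 and 0.351 for Elovl5; Elovl5 was also lost without untreated replicate 1 (0.0837) or replicate 2 (0.15). Cycling markers had higher fitted values with vitamin D3 for 13 of 13 genes, 1 of them called. They summed to 311 to 462 CPM with vitamin D3 against 296 to 304 CPM in untreated culture, and most of each sum was Pcna. Each of them was higher in vitamin D3 replicate 1 than in replicate 3. Mki67 was at 38.9 CPM in replicate 1 and 13.5 CPM in replicate 3, against 27.8 and 16.8 CPM in untreated culture. T cell markers summed to 122 to 136 CPM with vitamin D3 against 218 to 225 CPM in untreated culture. Of the 5, 3 had higher values with vitamin D3 and 1 was called lower. Nearly all of each sum was Cd2, at 120 and 135 CPM with vitamin D3 against 217 and 225 CPM in untreated culture. The part of either list in these results was not tested.

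At 4 weeks, Fads1, a desaturase of polyunsaturated fatty acids, rose in KO macrophages. It averaged 20.01 ± 3.41 CPM in KO and 10.2 ± 0.325 CPM in WT (SD, n = 2 each), and the groups did not overlap. Its fitted log2 change was 0.97 ± 0.16 (edgeR adjusted p = 0.0172). It was the 1 member of 34 past the threshold, where 0.667% of all genes passed. The call was lost without WT replicate 1 (adjusted p = 0.156), WT replicate 2 (0.0948) or KO replicate 2 (0.211), with log2 fold changes of 0.79 to 1.01 in these fits.

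None of the 18 sterol enzymes passed at 4 weeks by edgeR, and 6 had an unadjusted p under 0.05, as did 12% of all genes. All 18 had higher fitted values in KO, from 0.02 (Ebp) to 0.59 (Sqle), with a median of 0.34 against -0.01 for all genes. The 2 KO libraries differed in this. Set against the WT library of the same number, 11 of 18 were higher in KO replicate 1, with a median of 0.11. In KO replicate 2, 17 of 18 were, with a median of 0.52. A shared number does not establish pairing. For 10 of the 18, both KO libraries lay above both WT ones, where 24% of all genes did. Hmgcs1 was at 197 and 216 CPM in KO against 144 and 146 CPM in WT, with 0.51 ± 0.15 (edgeR adjusted p = 0.183). Dhcr7, which reduces a double bond of the sterol ring and so consumes the sterol from which skin makes vitamin D3, was at 84.4 and 100.3 CPM in KO against 69.03 and 70.9 CPM in WT, with 0.40 ± 0.12 (edgeR adjusted p = 0.215). Cycling markers had higher values in KO for 13 of 13 genes, with 0 called, and summed to 1213 to 1341 CPM in KO against 823 to 901 CPM in WT. Erythroid markers summed to 348 to 643 CPM in KO against 1330 to 3148 CPM in WT, with lower values for 5 of 5 and 1 called. T cell markers summed to 130 to 138 CPM in KO against 184 to 208 CPM in WT, with 1 of 5 called lower. Nearly all of each sum was Cd2, at 128 and 137 CPM in KO against 204 and 182 CPM in WT. Dendritic cell markers summed to 18 to 19 CPM in KO against 34 to 98 CPM in WT, with lower values for 6 of 6 and 0 called. The part of these markers in the Fads1, Me1 and sterol values was not tested.

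Of the control genes 0 of 6 passed at 4 weeks by edgeR, 0 had an unadjusted p under 0.05, and the median was 0.10. Srebf1 had 0.22 ± 0.11 (edgeR adjusted p = 0.447) and Stard4 0.41 ± 0.21 (edgeR adjusted p = 0.469). In the fatty acid arm the median was 0.28, and 7 of 10 had higher values in KO. Fasn had 0.40 ± 0.11 (edgeR adjusted p = 0.16), at 151 and 147 CPM in KO against 109.8 and 116 CPM in WT. Fads2 had 63 counts in KO against 18 in WT, a ratio of 3.79 (exact 95% counting interval 2.22 to 6.80), and did not pass (edgeR adjusted p = 0.301). Of the other pathway genes, Me1 alone passed. Me1 was at 8.36 and 5.9 CPM with vitamin D3, 8.59 and 5.1 in untreated culture, 1.66 and 1.63 in 10-week KO, 1.72 and 1.98 in 10-week WT, 17.8 and 15.97 in 4-week KO, and 1.96 and 1.01 in 4-week WT. Me1, a malic enzyme that yields NADPH for lipid synthesis, rose in 4-week KO by log2 3.54 ± 0.36 (edgeR adjusted p = 0.000814), and the other fresh libraries had 1.01 to 1.98 CPM.

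At 10 weeks, Scd2 fell in KO macrophages. It was at 33.8 and 54.8 CPM in KO against 102 and 95.2 CPM in WT, with no overlap. The fitted log2 change was -1.16 ± 0.18 (edgeR adjusted p = 0.0419). It was the 1 member past the threshold, where 0.11% of all genes passed. The call was lost without WT replicate 1 (adjusted p = 0.322) or replicate 2 (0.149). Within replicate 1 (male) and replicate 2 (female), Scd2 differed by log2 -1.57 and -0.79, Scd1 by -1.55 and -1.73 and Fads1 by -0.72 and -0.37. Exchanging the 2 libraries whose codes contradict their labels turned the Scd2 change to 0.15. That exchange sets both female libraries against both male ones. The 10-week columns of the deposited log2 table name their genotype, and limma on that table, grouped by those names, kept the Scd2 call.

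In the fatty acid arm 7 of 10 members had lower values in KO at 10 weeks, with a median of -0.53. For 6 of the 10 both KO libraries lay below both WT ones, where 20.9% of all genes did. Scd1 was at 13.3 and 7.68 CPM in KO against 39.8 and 26.7 CPM in WT, with -1.64 ± 0.36 (edgeR adjusted p = 0.142). Fads1 was at 9.51 and 13.01 CPM in KO against 15.95 and 17.02 CPM in WT, with -0.57 ± 0.16 (edgeR adjusted p = 0.233). Elovl6 had -0.78 ± 0.28 (edgeR adjusted p = 0.369), with log2 -0.16 within replicate 1 and -1.43 within replicate 2. Acsl3 had -0.16 and -0.68 in the same order. Fads2 had 16 counts in KO against 51 in WT, a ratio of 0.327 (exact 95% counting interval 0.174 to 0.583). It did not pass (edgeR adjusted p = 0.538), at 0.244 and 0.994 CPM in KO against 1.03 and 2.37 CPM in WT. Acly and Acaca, earlier in the arm, had 0.01 ± 0.10 and -0.10 ± 0.15. Dendritic cell markers summed to 20 to 23 CPM in KO against 48 to 71 CPM in WT, with 0 of 6 called. Epithelial markers summed to 342 to 487 CPM in KO against 258 to 312 CPM in WT, with higher values for 8 of 10 and 1 called. Most of that rise was Scgb1a1, at 171 and 145 CPM in KO against 29.8 and 30.5 CPM in WT. Epcam overlapped between the groups, and Cdh1 was lower in both KO libraries. The part of these markers in these values was not tested.

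The sterol arm had a median of 0.12 at 10 weeks. By edgeR 0 of 18 passed and 1 had an unadjusted p under 0.05, as did 9.76% of all genes, and 10 values were higher and 8 lower. Within replicate 1 (male) the sterol median was -0.06 and within replicate 2 (female) 0.22. Hsd17b7 had 0.48 ± 0.21 (edgeR adjusted p = 0.485) and Sqle 0.46 ± 0.24 (edgeR adjusted p = 0.6). Without KO replicate 1, Sqle had 0.88 with an edgeR adjusted p of 0.0396. The control genes also had 0 called and 0 with an unadjusted p under 0.05, with Srebf1 at -0.17 ± 0.11 (edgeR adjusted p = 0.702) and Insig1 at 0.23 ± 0.16 (edgeR adjusted p = 0.726).

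**Figure D3:**
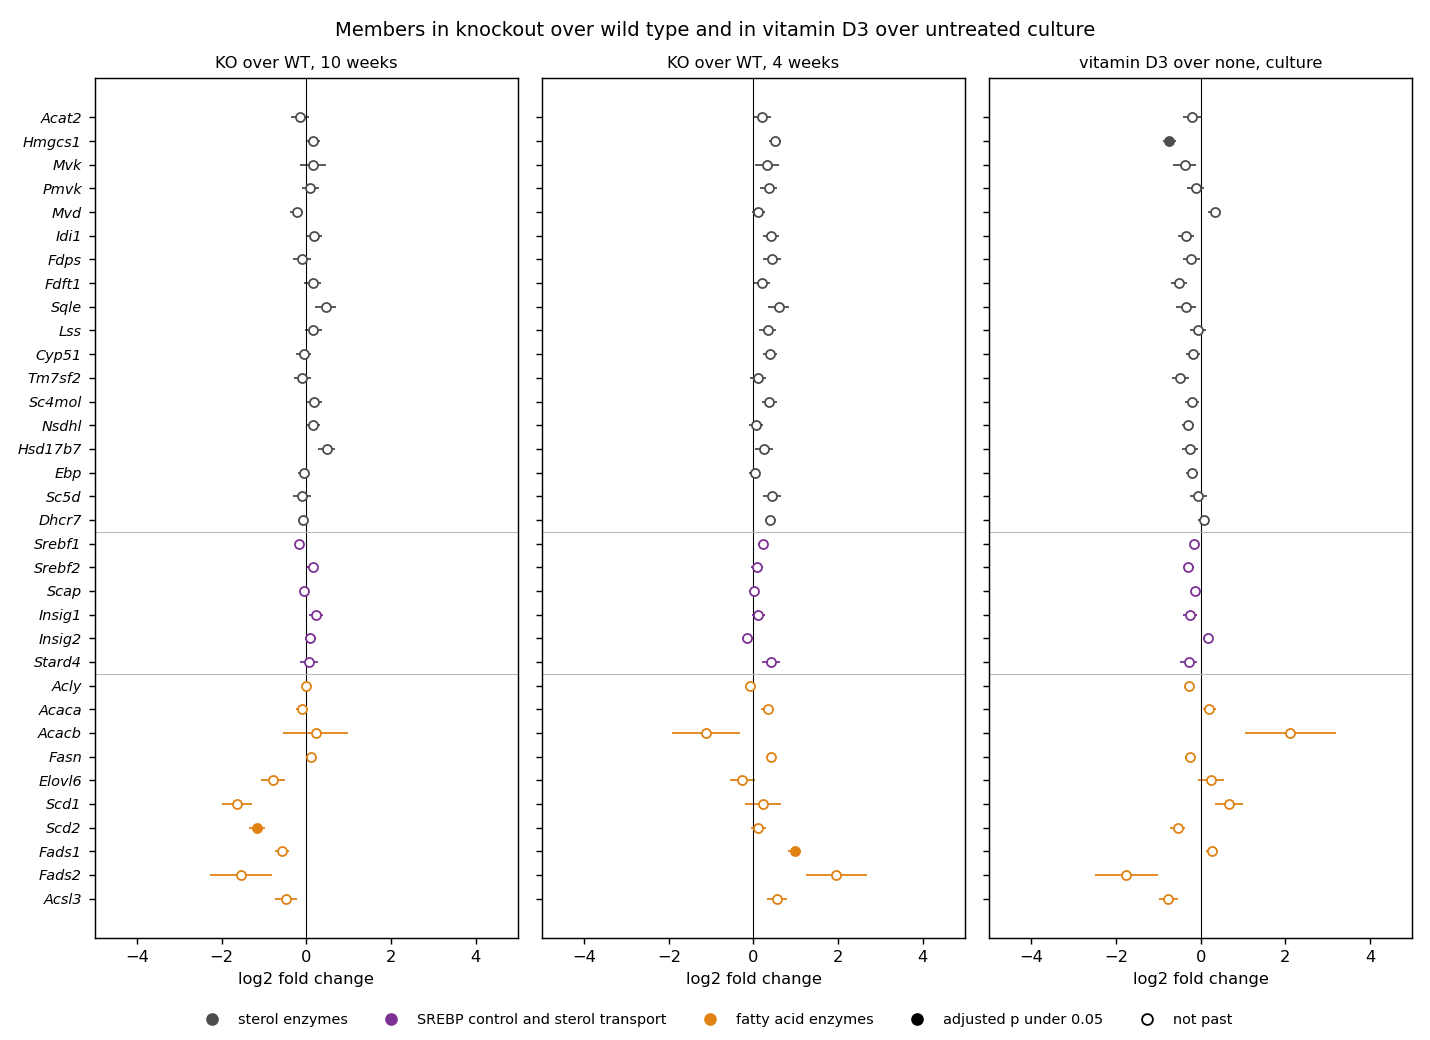
Log2 fold change (point) with its SE (bar) of each member in KO over WT at 10 weeks (left), KO over WT at 4 weeks (middle) and vitamin D3 over untreated culture (right), coloured by arm and filled where the edgeR adjusted p was under 0.05. The filled points are Scd2 (-1.16) at left, Fads1 (0.97) in the middle and Hmgcs1 (-0.74) at right, and the desaturases lie left of 0 at 10 weeks.

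Averaged over both ages, 0 of 34 members passed by edgeR, where 0.996% of all genes did; 9 had an unadjusted p under 0.05, as did 13.1% of all genes, and DESeq2 called 3. In the sterol arm Hmgcs1 had 0.34 ± 0.10 (edgeR adjusted p = 0.171) and Sqle 0.52 ± 0.17 (edgeR adjusted p = 0.195). Among control genes Stard4 had 0.24 ± 0.15 (edgeR adjusted p = 0.55) and Insig1 0.17 ± 0.11 (edgeR adjusted p = 0.58). In the fatty acid arm Scd2 had -0.52 ± 0.13 (edgeR adjusted p = 0.09) and Fasn 0.26 ± 0.08 (edgeR adjusted p = 0.162). Me1 passed with 1.69 ± 0.26 (edgeR adjusted p = 0.0168); without 10-week WT replicate 1 its adjusted p was 0.0871, without 4-week KO replicate 1 0.0824 and without 4-week KO replicate 2 0.0518.

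The KO difference of Fads1 was lower at 10 than at 4 weeks. It was -0.57 ± 0.16 at 10 weeks and 0.97 ± 0.16 at 4 weeks, and the interaction was -1.54 ± 0.23 (edgeR adjusted p = 0.0206). It was the 1 member of 34 past the threshold in that test, where 0.188% of all genes passed. Leaving out any of the 8 fresh libraries but 10-week KO replicate 2 and 4-week KO replicate 1 ended the call, with log2 interactions of -1.59 to -1.31 and adjusted p of 0.0556 to 0.139, and with the 10-week label exchange it was -0.73 (adjusted p = 0.689). Scd2 had -1.28 ± 0.26 (edgeR adjusted p = 0.118). In the sterol arm, with a median of -0.22 and 16 of 18 lower values, Dhcr7 had -0.48 ± 0.18 (edgeR adjusted p = 0.496) and Cyp51 -0.45 ± 0.24 (edgeR adjusted p = 0.649); among control genes Srebf1 had -0.39 ± 0.15 (edgeR adjusted p = 0.533) and Insig2 0.25 ± 0.18 (edgeR adjusted p = 0.765).

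**Figure D4:**
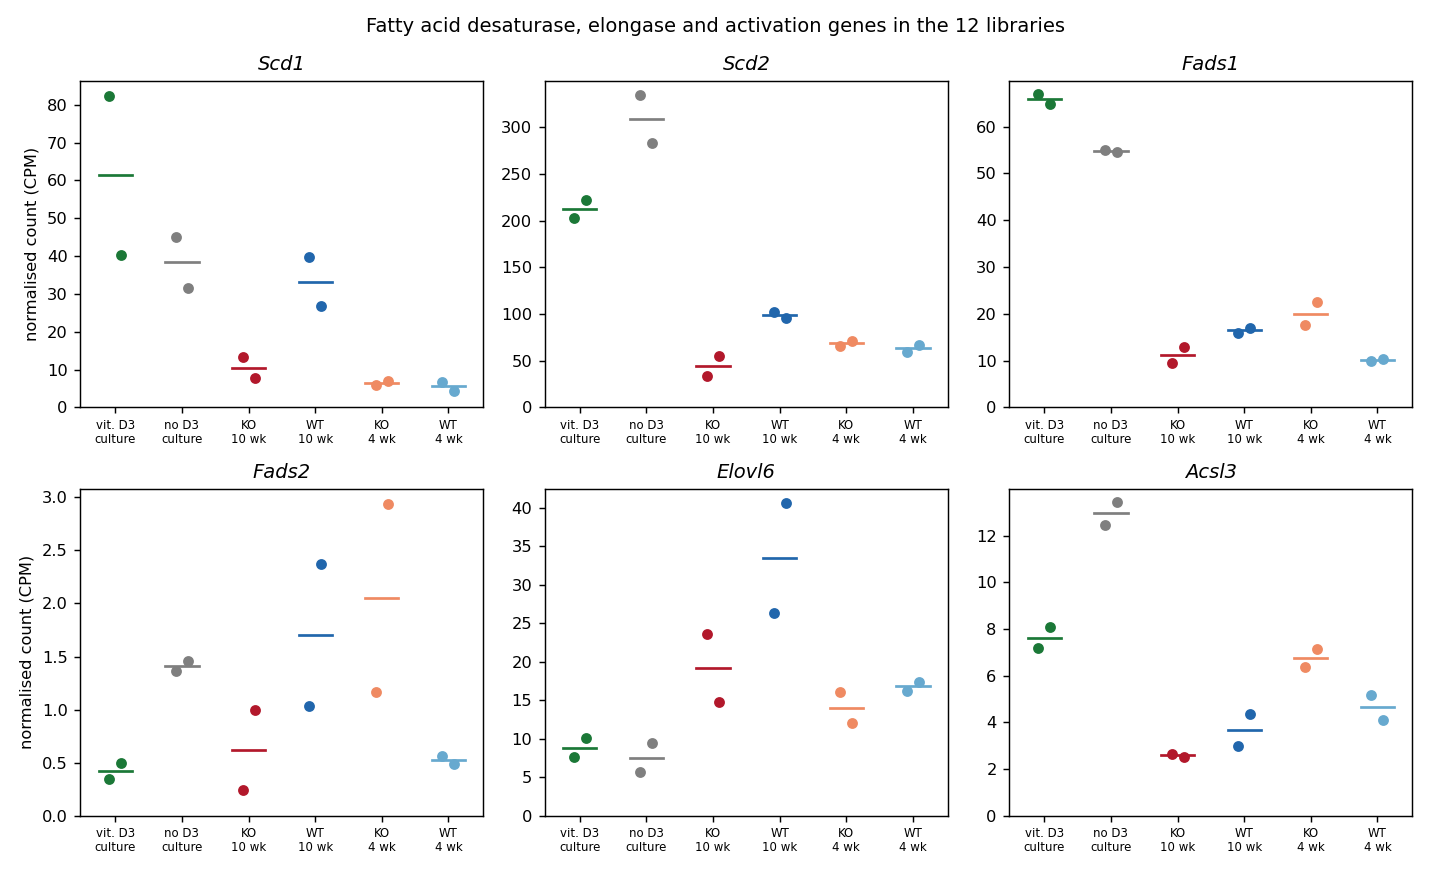
Normalised counts (CPM, linear axes from 0) of 6 fatty acid genes in each of the 12 libraries, with 1 point a library and a bar at the group mean. Fads1 is higher in KO than in WT at 4 weeks (17.6 and 22.4 against 9.92 and 10.4 CPM) and lower in KO at 10 weeks (9.51 and 13.0 against 16.0 and 17.0 CPM).

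In WT macrophages the desaturase genes Scd1 and Fads1 were higher at 10 than at 4 weeks. The 10-week replicates differed in sex and title series, whereas every 4-week library was male and of the title series of 10-week replicate 2. The ages were thus not balanced for sex or title series. Scd1 was at 39.8 and 26.7 CPM at 10 weeks against 6.71 and 4.44 CPM at 4 weeks, a rise of log2 2.61 ± 0.39 (edgeR adjusted p = 0.0058). Fads1 rose by 0.70 ± 0.16 (edgeR adjusted p = 0.0498), and these were the 2 members of 34 that passed, where 2.11% of all genes did. The Scd1 call was lost without 10-week WT replicate 1 (adjusted p = 0.0578) or 4-week WT replicate 2 (0.0774). That of Fads1 was lost without any 1 of the 4 libraries (adjusted p up to 0.259). Elovl6 had 0.99 ± 0.28 (edgeR adjusted p = 0.0937) and Scd2 0.64 ± 0.18 (edgeR adjusted p = 0.0885). The sterol enzymes had a median of -0.05, with Ebp at -0.24 ± 0.14 (edgeR adjusted p = 0.376) and Mvd at 0.22 ± 0.15 (edgeR adjusted p = 0.482), and the control genes Insig2 and Srebf2 had 0.23 ± 0.13 (edgeR adjusted p = 0.375) and -0.17 ± 0.14 (edgeR adjusted p = 0.537). Of 5 erythroid markers 4 fell at 10 weeks, with sums of 71 to 161 CPM at 10 weeks against 1330 to 3148 CPM at 4 weeks. Of 10 epithelial markers 6 had higher values at 10 weeks and 1 was called. They summed to 258 to 312 CPM at 10 weeks against 119 to 193 CPM at 4 weeks. Most of that rise was Epcam, at 134 and 159 CPM at 10 weeks against 34.8 and 16.8 CPM at 4 weeks. The part of these markers in the desaturase values was not tested.

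In KO macrophages 6 of 34 members differed between the ages, where 9.73% of all genes did. As in WT, the ages were not balanced for sex or title series. Acsl3 fell at 10 weeks by log2 1.38 (edgeR adjusted p = 0.00657), at 2.63 and 2.53 CPM at 10 weeks against 6.36 and 7.15 CPM at 4 weeks. Fads1 fell by 0.85, Scd2 by 0.64, Dhcr7 by 0.53 and Fasn by 0.43 (edgeR adjusted p = 0.00794, 0.0494, 0.0219 and 0.0335), and Insig2 rose by 0.47 ± 0.13 (edgeR adjusted p = 0.0419). None of these 6 calls held in all 4 fits with a library left out. Without 4-week KO replicate 2 all 6 were lost (adjusted p 0.0555 for Acsl3 to 0.253 for Insig2), and without 10-week KO replicate 1 all but Acsl3 were (up to 0.26 for Scd2). Without 4-week KO replicate 1, Scd2, Insig2 and Fasn were lost (0.131, 0.11 and 0.153), and without 10-week KO replicate 2, Insig2 and Fasn (0.105 and 0.0623). With the 10-week label exchange the Scd2 change turned to 0.13. The sterol median was -0.25, with 16 of 18 lower values. Of the other pathway genes, Me1, Tmem97 and Hsd17b12 fell by 3.35, 0.66 and 0.57, and Lpin1 rose by 0.78 ± 0.20. Me1 kept its call in all 4 fits, while the adjusted p reached 0.0917 for Hsd17b12 and 0.172 for Tmem97 without 4-week KO replicate 2, and 0.267 for Lpin1 without 10-week KO replicate 1. Of 13 cycling markers 11 fell in the same comparison, of 5 erythroid markers 3 fell and of 10 epithelial markers 2 rose, and their part in these values was not tested.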

How the data were processed

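RNA-seq of 12 libraries was analysed. The labels' protocols name the Qiagen RNeasy Micro kit for RNA and the KAPA mRNA HyperPrep kit for libraries. The authors deposited raw counts for each gene, and a log2 table holding log2(CPM + 1) of 10631 genes, 32 of the 34 members among them. TopHat2, edgeR and build mm9 are named, per the submitters' processing notes. Versions, annotation, counting tool and strandedness: not given in the sources used here. Reads shared with paralogs or overlapping genes therefore cannot be placed. The row naming no gene held 0 counts.

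Counts were tested with edgeR 4.0.16 in R 4.3.3 (quasi-likelihood F test) with TMM scaling and filterByExpr (minimum count 10, minimum total 15), in 1 fit of 12 libraries with 1 coefficient per group and 6 residual degrees of freedom. The Benjamini-Hochberg adjustment ran over the 12748 genes tested, at a threshold of 0.05. With groups of 2, the smallest two-sided p of a rank test is 0.333. Intervals of count ratios are exact, at 95%, and cover counting error only. Replicates differed by more than sampling noise (chi-square per degree of freedom 9.98 to 52.1). The code was checked on simulated counts.

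Values in every library are given for members past the threshold in any contrast and, where no member of an arm passed, for the pair with the smallest p; other pathway genes are named only where they passed, with examples in culture. The members, lists and contrasts were chosen with earlier results of these data known. Alternatives were DESeq2 1.42.0 and its size factors, no filter or a strict one (5 CPM in 2 libraries), the compared groups alone, a replicate block, each library left out, exchanged 10-week labels, and limma 3.58.1 on the deposited log2 table.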

Additional observations from a re-analysis of the deposited data

Results flagged for a closer look

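The KO difference of 2 genes depended on age by the interaction test. For Fads1, a fatty acid desaturase, the difference at 10 weeks less that at 4 weeks was log2 -1.54 ± 0.23 (SE; edgeR adjusted p = 0.0206). Both 10-week KO libraries lay below both WT libraries, and both 4-week KO libraries lay above both WT libraries. For Me1, a malic enzyme outside the 34 genes, it was -3.70 ± 0.52 (edgeR adjusted p = 0.0200), and its high values were those of the 2 KO libraries at 4 weeks. The Me1 call was lost in 7 of 8 fits with a library left out, with an adjusted p up to 0.103, and with the replicate number as a block (-3.72, adjusted p = 0.0547).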

How the results depend on the processing

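The number of members past the threshold was small in the genotype, age and vitamin D3 contrasts and moved with the settings. For KO against WT at 10 weeks (1 of 34) it was 0 with DESeq2 size factors, the strict filter, the compared groups alone or the label exchange, 5 without a filter and 2 by DESeq2. At 4 weeks (1) it was 5 without a filter, 4 with the compared groups alone and 3 by DESeq2. Over both ages (0) it was 7 without a filter and 3 by DESeq2, and for the interaction (1) 4, 2 and, with the exchange, 0. For 10 against 4 weeks in WT (2) it was 1 with size factors, the replicate block or limma, 4 without a filter, with the compared groups alone or by DESeq2, and 0 with the exchange. In KO (6) it was 1 with the exchange. For vitamin D3 (1) it was 4 without a filter and 2 with the strict filter, the replicate block, DESeq2 or limma. With 1 library left out the counts ran from 0 to 2 (KO at 10 weeks), 0 to 1 (4 weeks), 0 to 2 (both ages), 0 to 2 (interaction), 0 to 1 (age in WT), 0 to 8 (age in KO), 0 to 2 (vitamin D3), 23 to 27 (culture, 10 weeks) and 24 to 25 (culture, 4 weeks). Among named genes that passed in the main fit or the alternative, only Scd2 reversed. With the exchange it went to 0.15 for KO at 10 weeks and 0.13 for age in KO. The exchange puts 1 library of each genotype label on each side, with both female libraries as KO and both male ones as WT, so it cannot be told apart from sex or from the title series; the cause of the other moves was not tested. In culture, 23 of 26 and 22 of 29 called members passed in every fit with a library left out. The values of the 40 named genes were each taken under all alternatives of the contrasts that name them. Of these values, 1122 kept their side of the threshold, 110 no longer passed and 19 newly passed. Direction was compared only where the main fit or the alternative passed, so some of the 1122 may have changed direction. Same-numbered libraries correlated at -0.16 to 0.33 in their deviations, over 2 pairs a contrast, which does not establish pairing. The 10-week pairs (0.15) also share sex and title series. In culture (0.33), where the replicate block follows title series, the first pair shares source WT1 and the second joins WT3 to WT2. Among named genes the replicate block ended the calls of Me1 in the interaction (adjusted p = 0.0547), Fads1 with age in WT (0.0711) and Insig2 with age in KO (0.0532) and added Acsl3 with vitamin D3 (-0.77, 0.0477). Size factors shifted the median of all genes by at most 0.016. At 2 libraries a group, Fads2 and Acacb were limited by their counts.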
